A study of Sus scrofa with 8 samples.

Results

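The annexin genes were described in hearts of 6-month-old male pigs. Of 10 annexin genes looked up by symbol in the expression table (ANXA1, ANXA2, ANXA3, ANXA4, ANXA5, ANXA6, ANXA7, ANXA8, ANXA10 and ANXA11), 8 were found among the 18975 genes listed. ANXA3 and ANXA10 were not found by name and were not analysed here. Another 2 annexins of the table, ANXA9 and ANXA13, were outside the selection and are given only where they bear on it.

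The animals were Tibetan pigs raised in the highlands (TH) or in the lowlands (TL) and Yorkshire pigs raised in the highlands (YH) or in the lowlands (YL), at 3000 m and 100 m above sea level. Each group had 8 pigs and 2 libraries, and each library held RNA pooled from 4 pigs, so that every p-value given here measures the spread between pools. The design asks how the breeds differ at each altitude, how the altitudes differ within each breed, and whether the altitude difference depends on the breed. Expression was measured by RNA-seq and given as FPKM, a read density corrected for transcript length and for the number of fragments mapped, which allows levels to be compared between genes.

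Annexins are proteins that bind acidic phospholipids of membranes when calcium rises, through a conserved core of annexin repeats, while their differing N-terminal tails bind partners such as S100 proteins. They take part in membrane repair, vesicle traffic, the linking of membranes to actin and, outside the cell, in the control of clotting, plasmin formation and inflammation. In the heart, ANXA5 and ANXA6 are abundant members, found in cardiomyocytes as well as in other cells, whereas ANXA1 and ANXA2 are better known from endothelial cells, fibroblasts and leukocytes.

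Reads on genes ranged from 15687000 in TH2 to 26723000 in TH1, with a median of 19648000. Cardiomyocyte markers were high in every library, with a summed level from 13411 FPKM in YL2 to 36003 FPKM in TH1. Library YL2 stood apart from the rest: all 16 rows of a list of kidney markers exceeded 2 times their level in every other library, and the list summed to 4736 FPKM in YL2 against 1.48 to 18.0 FPKM elsewhere. The TH libraries stood apart in atrial markers, whose summed level was 6770 and 5547 FPKM against 442 to 2760 FPKM elsewhere. Of the 6 atrial genes, 3 (NPPA, MYL7 and SLN) were higher in both TH libraries than in all others, and the sum rests mainly on NPPA and MYL7. MYL4, the atrial light chain, measured 7.59 and 6.73 FPKM in TH against 8.85 and 21.4 FPKM in TL, PAM measured 159 and 171 FPKM against up to 169 FPKM elsewhere, and MYBPHL was listed at 0 in TH and TL. TH1 had the lowest sum of fibroblast markers, 244 FPKM against 273 to 893 FPKM. The values of the main results without these libraries are given beside them.

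ANXA2, which forms a complex with S100A10 at the plasma membrane that binds plasminogen, had the highest mean of the annexins over the 8 libraries, 136 FPKM. This rank rests on TH: over the other 6 libraries the means of ANXA2 and ANXA5 were 76.6 and 75.4 FPKM, and ANXA2 was not first in TL2, YH1 and YL2. Its gene (ENSSSCG00000004578) lies at chr1:123368015-123414408 on Sscrofa10.2. Its level was 355 and 275 FPKM in TH, 72.7 and 77.6 FPKM in TL, 59.6 and 123 FPKM in YH, and 74.2 and 52.7 FPKM in YL, on 2114 to 11428 reads. Both TH libraries lay above all others, and the lower of them was 2.24 times the highest value of the other groups. The TL, YH and YL libraries overlapped. The mean of TH, 315 ± 56.9 FPKM (SD, n = 2), was 3.46 times that of YH (91.1 ± 44.6 FPKM, SD, n = 2) and 4.19 times that of TL (75.2 ± 3.45 FPKM, SD, n = 2). With limma and Benjamini-Hochberg adjustment over all 11913 genes tested, the log2 fold change of TH over YH was 1.86 (SE 0.38, adjusted p = 0.113), and that of TH over TL was 2.04 (SE 0.38, adjusted p = 0.179). Neither passed the threshold for a call, an adjusted p under 0.01 together with a change of more than 1 log2 unit in either direction. The altitude difference of Tibetan pigs exceeded that of Yorkshire pigs by 1.60 for ANXA2 on the log2 scale (SE 0.54, adjusted p = 0.38 by limma), with 1.41 without TH1, 1.78 without TH2, 1.08 without YH1, 2.11 without YH2 and 0.93 when the FPKM of each library were brought to the same sum. Without TH1 the log2 fold change of ANXA2 was 1.67 over YH and 1.86 over TL, and without TH2 it was 2.04 and 2.23. With the same FPKM sum it was 0.86 over YH and 1.38 over TL. Fold changes throughout are on the scale of log2(FPKM + 1), which understates those of genes with low levels.

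ANXA8, a member found at low levels in most tissues, had the largest ratio of its highest to its lowest value among the annexins (11.1 to 0.224 FPKM). The gene (ENSSSCG00000010370) lies at chr14:95804111-95825709. It was measured at 11.1 and 9.24 FPKM in TH, 1.46 and 1.01 FPKM in TL, 0.392 and 0.82 FPKM in YH, and 0.388 and 0.224 FPKM in YL. The reads behind these values were 510 and 404 for TH, 78 and 62 for TL, 21 and 51 for YH, and 16 for either YL library. No groups overlapped in FPKM as deposited, in the order TH, TL, YH and YL. The lower TH library was 6.31 times the highest value outside TH. YH and YL were hardly apart, with 0.392 FPKM in YH1 (21 reads) against 0.388 FPKM in YL1 (16 reads). The share of all genes with such an order of 4 groups was not counted. The mean of TH (10.2 ± 1.33 FPKM, SD, n = 2) was 16.8 times that of YH (0.606 ± 0.302 FPKM, SD, n = 2) and 8.22 times that of TL (1.24 ± 0.319 FPKM, SD, n = 2). The mean of TL was 4.04 times that of YL (0.306 ± 0.116 FPKM, SD, n = 2).

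In the limma fit, ANXA8 ranked number 7 of all genes tested by p in TH against YH, with a log2 fold change of 2.81 (SE 0.24, adjusted p = 0.0152). It ranked number 10 in TH against TL, with 2.32 (SE 0.24, adjusted p = 0.0364). These 2 differences passed an adjusted p under 0.05 but not the threshold of 0.01. TL exceeded YL by 0.77 (SE 0.24, adjusted p = 0.402), and the interaction of breed and altitude was 2.03 (SE 0.34, adjusted p = 0.201 by limma). Without YL2 the difference of TL from YL in ANXA8 was 0.68, and the interaction was 1.91 without TH1 and 2.16 without TH2. With a pseudocount of 0.1 in place of 1, the log2 fold change of TH over YH was 3.93 (adjusted p = 0.0402) and that of TH over TL was 2.96 (adjusted p = 0.153), and that of TL over YL was 1.73. The pass of TH against TL at 0.05 also ended with scaling by median ratios (adjusted p = 0.0606), without the filter on low values (0.0947), with a block for the replicate number (0.0847), with only the 4 libraries compared (0.0734) and with scaled reads in place of FPKM (0.151), an alternative chosen after seeing the data. The pass of TH against YH ended with only the 4 libraries compared (adjusted p = 0.0818) and with scaled reads (0.0669). With the same FPKM sum, the log2 fold change of ANXA8 was 1.31 over YH (adjusted p = 0.0889) and 1.18 over TL (adjusted p = 0.354), its difference of TL from YL was 0.31, and its interaction was 1.01 by limma. In TH against YH, an adjusted p under 0.05 was kept for ANXA8 without TH2, YL1 or YL2 (0.0172 to 0.0419), and it was 0.111 without TH1, 0.0640 without TL1, 0.0647 without TL2, 0.125 without YH1 and 0.0805 without YH2 by limma. In TH against TL it was kept only without YL1 (0.0266) or YL2 (0.0262), and was 0.0597 to 0.409 without 1 of the other 6 libraries, TH1, TH2, TL1, TL2, YH1 or YH2. With 1 library left out, the log2 fold change of ANXA8 lay between 2.61 and 3.00 in TH over YH and between 2.18 and 2.47 in TH over TL.

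ANXA5, which covers exposed phosphatidylserine and is used as a probe of dying cells, followed ANXA2 in mean level with 97.0 FPKM. The gene (ENSSSCG00000009097) lies at chr8:109609048-109642588. Its level was 143 and 181 FPKM in TH, 72.5 and 89.1 FPKM in TL, 67.7 and 105 FPKM in YH, and 68.8 and 49.1 FPKM in YL. Both TH libraries were again above all others, by a smaller margin than for ANXA2: the lower was 1.36 times the highest value outside TH. TL lay above YL without overlap, and YH overlapped both. The log2 fold change of ANXA5 was 0.92 in TH over YH (SE 0.31, adjusted p = 0.241) and 0.99 in TH over TL (SE 0.31, adjusted p = 0.314 by limma). Without TH1 these values of ANXA5 were 1.09 and 1.16, and without TH2 they were 0.75 and 0.82. Without YH1 the value over YH was 0.61. The direction in TH over YH depended on the scaling: with the FPKM of each library brought to the same sum, the log2 fold change of ANXA5 was -0.05, while the median of all genes was -0.50 in place of -0.03. Relative to that median ANXA5 stood at 0.45. In TH over TL the log2 fold change of ANXA5 was then 0.36, with a median of all genes of -0.27. Mitochondrial genes made up 57.7% (YH2) to 87.6% (TH1) of the FPKM sum of a library. That sum was 8559104 FPKM in TH1 and 2829255 FPKM in TH2. Outside TH it was 1563940 FPKM (YL2) to 4017846 FPKM (YL1).

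**Figure D1:**
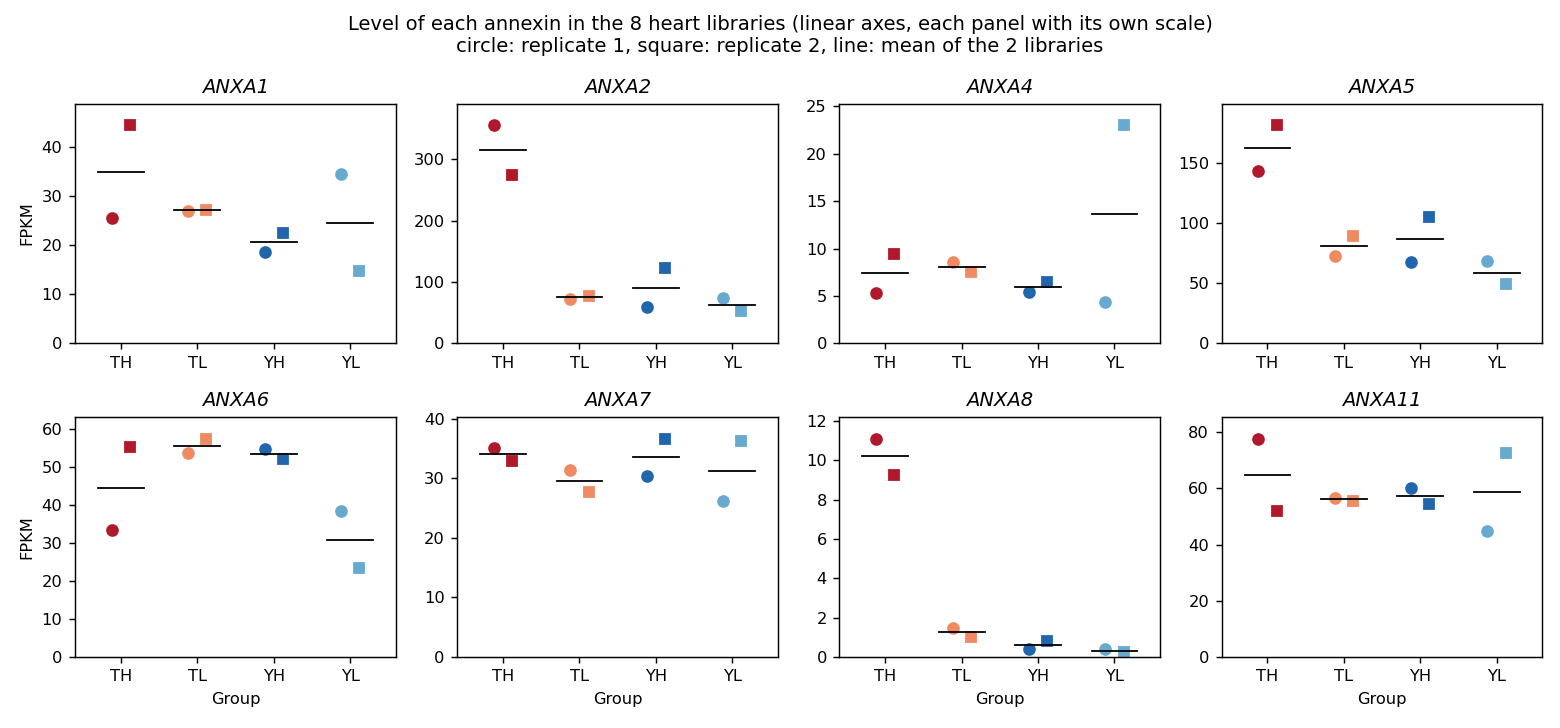
Level of the 8 annexins (FPKM, vertical axis from 0 with its own scale in each panel) in the TH, TL, YH and YL groups; circles and squares are replicates 1 and 2 and the line is their mean. ANXA2, ANXA5 and ANXA8 are higher in both TH libraries than in the other 6, ANXA4 is high only in YL2 (23.0 FPKM), and ANXA7 varies least.

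For these 3 annexins, ANXA2, ANXA5 and ANXA8, both TH libraries exceeded the other 6, that is for 3 of the 8 members, and the same was true of 10.1% of all genes tested. This count was made on FPKM as deposited and was not repeated with the same FPKM sum. With that scaling it cannot hold for ANXA5, whose log2 fold change in TH over YH was then -0.05. The sums of other marker lists differed between TH and the rest as well. Endothelial markers summed to 203 and 194 FPKM in TH against 99.2 to 179 FPKM elsewhere (2 of 6 genes above all other libraries), and smooth muscle markers to 369 and 335 FPKM against 108 to 242 FPKM (2 of 5 genes). Single genes of these lists went the other way in TH1, where VWF (1.07 FPKM), TEK (3.70 FPKM), KDR (8.74 FPKM) and MYH11 (0.388 FPKM) had their lowest value of the 8 libraries. Erythroid markers summed to 3089 and 1625 FPKM in TH against 528 to 1400 FPKM (2 of 5 genes above all others), T and NK cell markers to 6.26 and 6.85 FPKM against 9.41 to 32.7 FPKM, and adipocyte markers to 3.12 and 4.20 FPKM against 5.84 to 12.3 FPKM. Mesothelial markers summed to 6.08 and 6.89 FPKM in TH, 38.2 FPKM in YL2 and 0.32 to 4.4 FPKM in the other 5 libraries, mostly from KRT8 (5.74 and 6.64 FPKM in TH, 33.9 FPKM in YL2), while the defining marker MSLN was at 0 and 0.032 FPKM in TH. The sum of macrophage markers was lower, at 41.9 and 57.4 FPKM in TH against 70.0 to 118 FPKM, with C1QA and C1QC lower in both TH libraries, CD68 at 5.39 and 5.95 FPKM against 2.18 to 6.43 FPKM, and the defining marker CD163 at or near 0 in every library. The part of these markers and of the atrial genes in the annexin levels was not tested. In tissue RNA, more cells of a type and more RNA per cell cannot be told apart.

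ANXA1, the glucocorticoid-induced member that signals through formyl peptide receptors to limit inflammation, showed no such order. Located at chr1:252989613-253007803 (ENSSSCG00000005267), it measured 25.6 and 44.5 FPKM in TH, 27.1 and 27.3 FPKM in TL, 18.7 and 22.6 FPKM in YH, and 34.5 and 14.7 FPKM in YL. TH lay above YH without overlap, and neighbours in the order of the means (TH, TL, YL, YH) overlapped. The 95% interval of its log2 difference of TH from YH ran from -0.33 to 1.71. Replicates within a group differed by up to 1.18 on the log2 scale, in YL, more than the group means did (0.69). Without YL2, the difference of TL from YL in ANXA1 was -0.33 in place of 0.26.

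ANXA6, a member with 2 annexin cores in 1 chain that is prominent in heart muscle, had its lowest group mean in YL. The gene (ENSSSCG00000017089) lies at chr16:78094268-78115994, and its level was 33.3 and 55.2 FPKM in TH, 53.6 and 57.3 FPKM in TL, 54.7 and 52.1 FPKM in YH, and 38.2 and 23.3 FPKM in YL. TL and YH each lay above YL without overlap, and the TH libraries overlapped each of the other groups. The log2 fold change of ANXA6 was 0.87 in TL over YL (SE 0.33, adjusted p = 0.494) and 0.82 in YH over YL (SE 0.33, adjusted p = 0.784 by limma). Without YL2, the library with kidney markers, these values were 0.52 and 0.47, and without YL1 they were 1.22 and 1.16. With the same FPKM sum the value of ANXA6 in TL over YL was 0.52. The interaction was -1.18 (SE 0.46, adjusted p = 0.433 by limma), with -0.82 without TH1 and -0.83 without YL2. Without TH2 it was -1.53, without YL1 -1.52 and with the same FPKM sum -1.69.

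ANXA4, an annexin of epithelia and secretory cells, was set apart by a single library. It lies at chr3:76060038-76128752 (ENSSSCG00000008336). The values were 5.34 and 9.47 FPKM in TH, 8.64 and 7.53 FPKM in TL, 5.47 and 6.53 FPKM in YH, and 4.36 and 23.0 FPKM in YL. The value in YL2 thus exceeded all others, and the value in YL1 was the lowest of the 8 libraries. ANXA13, an epithelial annexin outside the selection, had 7.48 FPKM in YL2 and 0.201 to 0.448 FPKM in the other libraries. Without YL2, the log2 difference of ANXA4 between TL and YL was 0.76 in place of -0.32, and that between YH and YL was 0.38 in place of -0.70. The part of the kidney markers of YL2 in this level was not tested.

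ANXA7 and ANXA11, members with long N-terminal tails that bind the EF-hand proteins sorcin and ALG-2, varied least. ANXA7 (ENSSSCG00000010299, chr14:82330743-82360270) measured 35.1 and 32.9 FPKM in TH, 31.3 and 27.7 FPKM in TL, 30.4 and 36.6 FPKM in YH, and 26.1 and 36.3 FPKM in YL. Its highest value was 1.40 times its lowest, and the 95% intervals of its differences in the 4 comparisons of groups lay between -0.63 and 0.76 on the log2 scale. ANXA11 (ENSSSCG00000010331, chr14:88448384-88490746) measured 77.7 and 52.0 FPKM in TH, 56.6 and 55.6 FPKM in TL, 60.3 and 54.5 FPKM in YH, and 45.0 and 72.7 FPKM in YL. Its group means lay within 0.18 of each other on the log2 scale, less than its replicates differed in YL (0.68), and its intervals lay between -0.76 and 0.91.

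**Figure D2:**
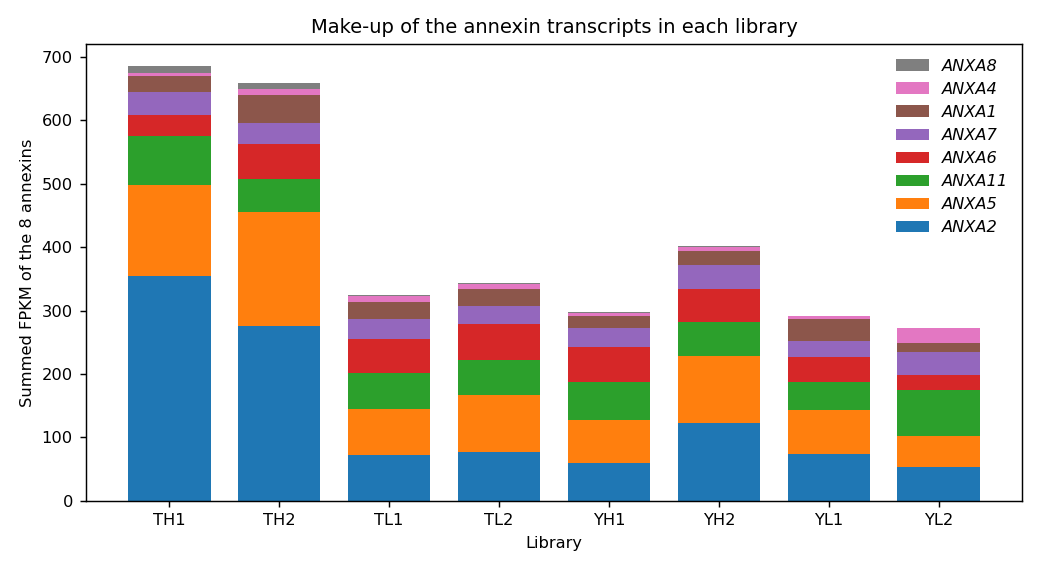
Summed FPKM (as deposited) of the 8 annexins in each library, stacked by gene with the most abundant at the bottom. The TH bars reach 687 and 659 FPKM and the other bars 272 to 401 FPKM, and ANXA2 fills 51.8% and 41.7% of the TH bars.

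The summed level of the 8 members was 687 and 659 FPKM in TH, 324 and 343 FPKM in TL, 297 and 401 FPKM in YH, and 292 and 272 FPKM in YL. These are FPKM as deposited, and the order of the libraries was not examined with the same FPKM sum. The FPKM of all genes summed highest in TH1, as given above. ANXA2 made up 51.8% and 41.7% of the annexin sum in TH and 19.4% to 30.6% elsewhere, as the stacked bars show. It ranked first in TH1, TH2, TL1, YH2 and YL1, ANXA5 ranked first in TL2 and YH1, and ANXA11 ranked first only in YL2, with 26.7% of the sum. ANXA8 gave 1.62% and 1.40% of the sum in TH, against a maximum of 0.452% outside TH.

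Across the comparisons, 0 of the 8 annexins were called in any. In TH against YH, limma called 0.0336% of all genes tested, in TL against YL 0.00839%, in TH against TL 0.0504%, in YH against YL 0.00% and for the interaction 0.0336%. At an adjusted p under 0.05 with the same fold, the 1 annexin passing in TH against YH and in TH against TL was ANXA8, where 0.260% and 0.101% of all genes passed. At an unadjusted limma p under 0.05, 3 of 8 annexins passed in TH against YH (16.2% of all genes), 2 in TL against YL (8.94%), 3 in TH against TL (11.3%), 1 in YH against YL (5.97%) and 3 for the interaction (10.9%). With 1 library left out, the numbers of annexins passing were 2 to 3 in TH against YH, 0 (without TL1) to 4 (without YL1) in TL against YL, 2 to 3 in TH against TL and 0 to 2 in YH against YL. For the interaction 1 passed without TH1, TL1, TL2 or YH1. With the same FPKM sum, 1 passed in each comparison of TH and 0 elsewhere. The 1 of YH against YL also became 0 with median-ratio scaling, with a block for the replicate number and with only the 4 libraries compared. The 2 of TL against YL became 1 with median-ratio scaling, and the 3 of the interaction became 2 with the replicate block. TH against YH and TH against TL share the TH libraries, so the 2 sets of values are not independent.

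The groups lay apart, with the first one higher, for 4 of 8 annexins in TH against YH (25.2% of all genes), for 3 in TL against YL (23.8%), for 4 in TH against TL (24.0%) and for 2 in YH against YL (21.9%). No annexin lay apart in the other direction. These counts were made on FPKM as deposited and were not repeated with the same FPKM sum. With 2 libraries against 2, an exact permutation test of 1 gene cannot give a p below 0.333. The median log2 fold change of the 8 annexins was 0.46 in TH over YH, 0.26 in TL over YL, 0.25 in TH over TL and 0.20 in YH over YL, where the medians of all genes were -0.03, 0.02, -0.02 and 0.03. With the same FPKM sum, the median of the annexins was -0.28 in TH over YH, above that of all genes (-0.50), and -0.30 in TH over TL, below that of all genes (-0.27). It was then -0.06 in TL over YL, where that of all genes was -0.23. On FPKM as deposited, the annexin medians of TH over YH and TH over TL were 0.83 and 0.45 without TH1. Without TH2 they were 0.37 and 0.35, and without YH2 the median of YH over YL was 0.03. Without YL1 the medians of TL over YL and YH over YL were 0.60 and 0.42. In TH over YH the log2 fold change was positive for 7 of 8 annexins and for 47.5% of all genes, but for 2 of 8 annexins after scaling to the same FPKM sum, where 5 of 8 remained above the median of all genes.

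**Figure D3:**
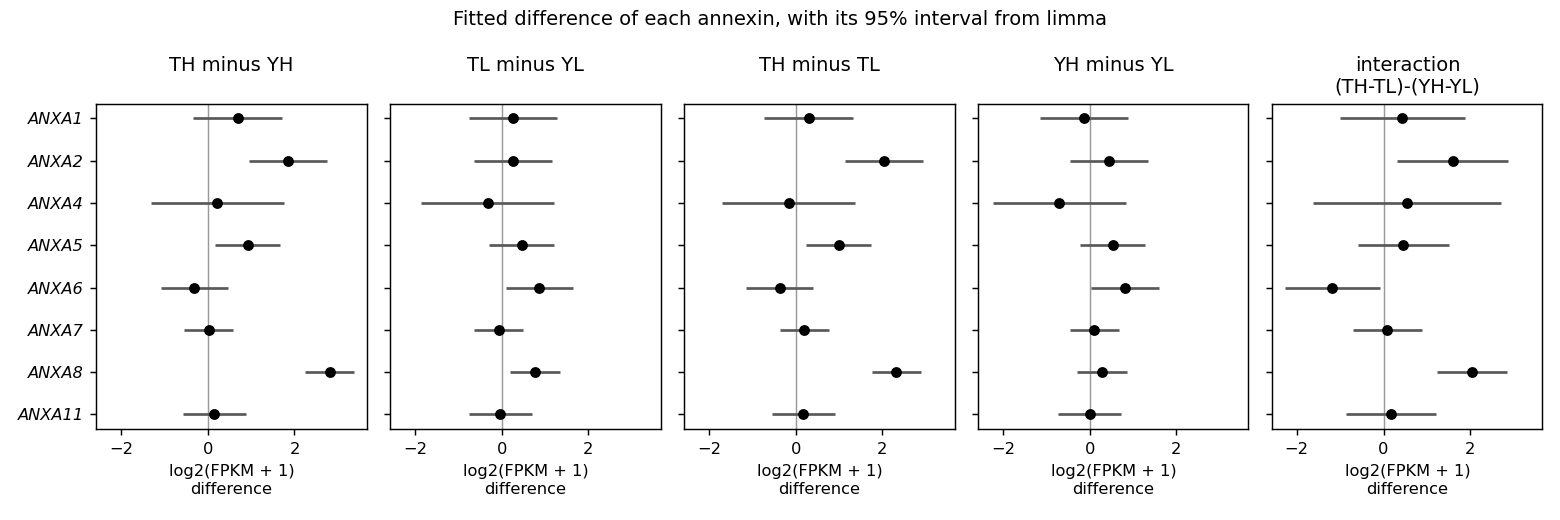
Fitted difference of each annexin on the log2(FPKM + 1) scale (points) with its 95% interval from limma (lines), for the 4 comparisons of groups and the interaction. The intervals of ANXA2, ANXA5 and ANXA8 lie above 0 in both comparisons with TH, and those of ANXA6 above 0 in both comparisons with YL.

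The genes whose profile was nearest to that of ANXA2 were looked up among 4160 genes tested with a mean of at least 10 FPKM, by the mean absolute difference of their log2(FPKM + 1) values after centring each gene on its own mean. They were FADS3 (0.206), RCN3 (0.213), NME1 (0.220), DNASE1L1 (0.223) and TIMP1 (0.228), where the median over all these genes was 0.822. TIMP1, an inhibitor of metalloproteinases, measured 150 and 77.8 FPKM in TH, 19.1 and 18.6 FPKM in TL, 15.8 and 41.0 FPKM in YH, and 19.6 and 8.42 FPKM in YL. NME1, a nucleoside diphosphate kinase, measured 84.1 and 40.5 FPKM in TH and at most 20.2 FPKM elsewhere. The likeness is a description over 8 libraries and rests mainly on the step between TH and the rest. S100A10 came at rank 20 (0.323) and ANXA5 at rank 35 (0.355), and ANXA1 came at rank 795 (0.677).

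**Figure D4:**
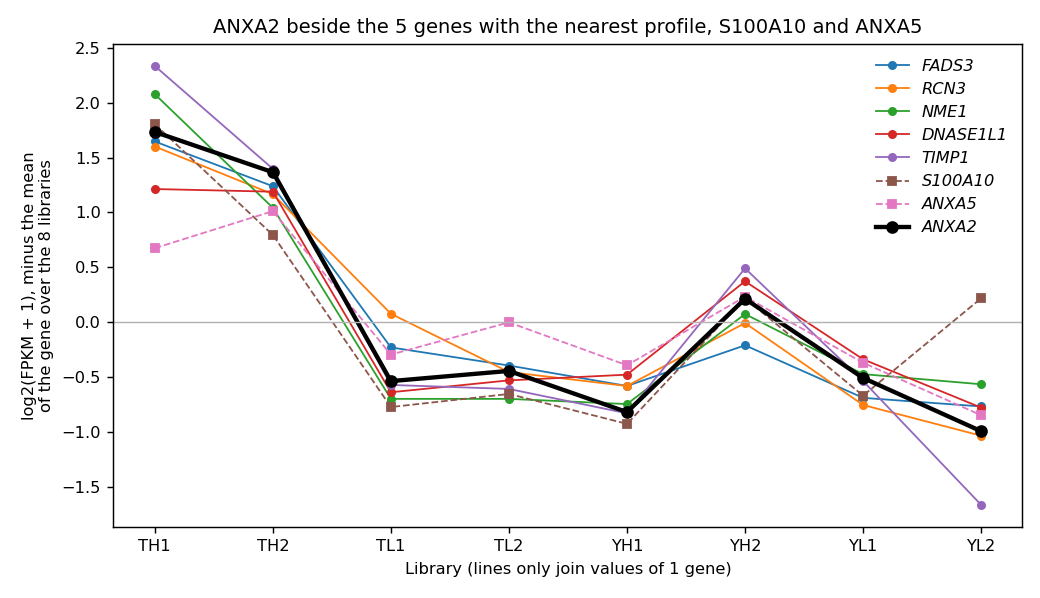
Profiles of ANXA2 (black), of the 5 nearest genes (solid lines), and of S100A10 and ANXA5 (dashed lines) over the 8 libraries, as log2(FPKM + 1) minus the mean of each gene. All 8 genes are highest in the TH libraries, and S100A10 differs from ANXA2 most in YL2.

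Known partners of the annexins were counted from lists of 6 kinds, and 0 of their genes were called by limma in any comparison. The counts in TH depended on the scaling: with the same FPKM sum in each library, the only partners at an unadjusted p under 0.05 in TH against YH or TH against TL were 1 lower and 1 higher row of the plasminogen list, respectively, and the differences of TMSB10 and CAPNS1 between TH and YH were -0.08 and -0.23, which is 0.43 and 0.28 above the median of all genes. In TL against YL, 1 lower row of the S100 list and 1 of the plasminogen list then passed, and in YH against YL 1 higher row of the plasminogen list. The share of all genes at that p, against which each count of partners is to be read, was 16.2% in TH against YH, 8.94% in TL against YL, 11.3% in TH against TL and 5.97% in YH against YL. Of the 9 rows of S100 proteins and AHNAK, 4 had an unadjusted limma p under 0.05 with a higher level in TH than in YH and 0 with a lower one, and 5 were higher and 1 lower in TH than in TL (16.2% and 11.3% of all genes). Without TH1, 2 were higher in TH than in YH, and with median-ratio scaling or without TH2, 3 were higher in TH than in TL. Without TH1, 4 were higher and 0 lower in TH than in TL. The list had 1 higher and 1 lower row in TL against YL, and 1 higher and 0 lower in YH against YL (8.94% and 5.97% of all genes). S100A10, the partner of ANXA2, measured 408 and 202 FPKM in TH, 67.4 and 73.3 FPKM in TL, 60.5 and 135 FPKM in YH, and 72.5 and 135 FPKM in YL. Both TH values of S100A10 were above the rest, with a log2 fold change of 1.65 over YH (SE 0.52, adjusted p = 0.219) and 2.01 over TL (SE 0.52, adjusted p = 0.261 by limma). Without TH1 these values of S100A10 were 1.15 and 1.51, and without TH2 they were 2.16 and 2.52. Over YH the value was 1.08 without YH1 and 2.23 without YH2. Scaling to the same FPKM sum gave 0.65 and 1.35 for S100A10. S100A11, the partner of ANXA1, is listed in 2 rows, 1 on chromosome 4 and 1 on an unplaced scaffold, and reads may be split between them. Its rows measured 28.6 to 29.2 FPKM and 11.8 to 16.0 FPKM in TH and 9.14 to 16.0 FPKM and 4.55 to 7.96 FPKM elsewhere, and they were named after their values were seen. S100A1, the main S100 protein of cardiomyocytes, measured 713 to 2096 FPKM with overlapping groups.

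The plasminogen list had 6 rows tested, of which 2 were higher in TH than in YH and 4 higher in TH than in TL at an unadjusted limma p under 0.05, and 0 lower in either (16.2% and 11.3% of all genes passed that p). In TL against YL 1 was higher and 1 lower, and in YH against YL 2 were higher and 0 lower (8.94% and 5.97% of all genes). Without TH1 or without TH2, 1 was higher in TH than in TL and 1 higher in YH than in YL. In TH against YH, 1 was higher and 1 lower with median-ratio scaling, 2 were higher and 1 lower without TH1, and 1 was higher and 0 lower without TH2. SERPINB2, an inhibitor of urokinase, measured 291 and 371 FPKM in TH, 79.4 and 139 FPKM in TL, 66.9 and 220 FPKM in YH, and 54.7 and 27.3 FPKM in YL. Its log2 fold change was 1.43 over YH (adjusted p = 0.314) and 1.64 over TL (adjusted p = 0.385 by limma), with 1.60 and 1.81 without TH1 and 1.25 and 1.46 without TH2. Over YH the value of SERPINB2 was 0.58 without YH1 and 2.28 without YH2, and with the same FPKM sum its values were 0.44 over YH and 0.99 over TL.

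Among 9 actin and membrane linkers, 5 were higher in TH than in YH and 4 higher in TH than in TL at an unadjusted limma p under 0.05, and 0 lower, beside 16.2% and 11.3% of all genes. In TL against YL and in YH against YL, 3 of them were higher and 1 lower (8.94% and 5.97% of all genes). Without YL2, 2 were higher and 0 lower in TL against YL. PFN1, which binds actin monomers, measured 756 and 454 FPKM in TH and 177 to 231 FPKM elsewhere, with a log2 fold change of 1.53 over YH (SE 0.32, adjusted p = 0.116) and 1.57 over TL (SE 0.32, adjusted p = 0.197 by limma). Without TH1 these values of PFN1 were 1.16 and 1.20, and without TH2 they were 1.90 and 1.94. Scaling to the same FPKM sum brought them to 0.54 and 0.93. VIM, the intermediate filament of mesenchymal cells, measured 324 and 337 FPKM in TH, 206 and 192 FPKM in TL, 92.0 and 131 FPKM in YH, and 89.4 and 97.9 FPKM in YL. TMSB10, another binder of actin monomers, measured 586 to 828 FPKM in TH, 515 to 531 FPKM in TL, 355 to 386 FPKM in YH, and 226 to 237 FPKM in YL. For VIM and TMSB10 all Tibetan libraries thus lay above all Yorkshire libraries in FPKM as deposited. The share of all genes with such an order was not counted. The log2 fold change of VIM was 1.58 in TH over YH (adjusted p = 0.0742) and 1.08 in TL over YL (adjusted p = 0.271), and that of TMSB10 was 0.91 (adjusted p = 0.198) and 1.17 (adjusted p = 0.271 by limma). Without TH1 the log2 fold change in TH over YH was 1.61 for VIM and 0.66 for TMSB10, and without TH2 it was 1.55 and 1.16. Without YL2 the log2 fold change in TL over YL was 1.15 for VIM and 1.14 for TMSB10. With the same FPKM sum VIM was 0.59 in TH over YH and 0.73 in TL over YL. TMSB10 was then -0.08 in TH over YH and 0.83 in TL over YL.

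The membrane repair list had 8 rows tested, of which 0 passed an unadjusted limma p under 0.05 in TH against YH and 2 were higher in TH than in TL (16.2% and 11.3% of all genes). The 2 became 0 with median-ratio scaling or without TH2, and 1 without TH1, and without TH1 1 was higher in TH than in YH. In TL against YL and in YH against YL, 2 were higher and 0 lower (8.94% and 5.97%), and without YL2 1 was higher in TL than in YL. CAV1, the coat protein of caveolae, measured 44.9 FPKM in YL2 and 112 to 196 FPKM in the other libraries. Of 3 EF-hand partners tested, 1 was higher in TH in both comparisons at that p (16.2% and 11.3% of all genes), and 0 were without TH1 in both or with median-ratio scaling in TH against TL. The gene was CAPNS1, the small calpain subunit, at 236 and 187 FPKM in TH and 120 to 159 FPKM elsewhere. Of 3 genes of the receptors and lipid mediators tested, 2 were lower in TH in both comparisons at an unadjusted limma p under 0.05 (16.2% and 11.3% of all genes), and 1 was without TH1. In TL against YL and in YH against YL, 1 was higher and 0 lower (8.94% and 5.97%), and without YL2 0 were higher in TL than in YL. The 2 genes lower in TH were ALOX5, which makes leukotrienes, and PLA2G4A, the cytosolic phospholipase that releases arachidonic acid, both named after their values were seen. PLA2G4A measured 2.65 and 3.79 FPKM in TH against 3.78 to 8.14 FPKM elsewhere.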

How the data were processed

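RNA pools of heart were sequenced by the authors, who aligned reads to Sscrofa10.2 with TopHat2 2.0.9 (Bowtie 0.12.5 and DESeq 1.10.1 also stand in the submitters' processing notes) and computed FPKM with Cufflinks. The deposited table gives FPKM and a signal, reads scaled by 1 factor per library. Dividing this deposited signal by its most common low value gave whole numbers (within 0.1 read) for 99.8% of low values. It was used for estimated depth and reads per gene, and in 1 alternative. How reads matching several loci were treated is not given in the sources used here. The YL libraries were grouped by title and breed, although their descriptions point to TL.

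In this work, limma 3.58.1 (R 4.3.3) modelled log2(FPKM + 1) by group over the 8 libraries together, with a variance trend. Genes reaching 1 FPKM in 2 or more libraries entered (11913), and p-values were adjusted by Benjamini-Hochberg. The fit was also run on simulated data with a larger shift than any annexin showed in the main fit, in genes of higher mean than ANXA8. Smaller changes, or changes at levels as low as that of ANXA8, were not simulated. The members, partner lists and marker lists were chosen with earlier results of these data known. Named were all members, the 8 partners of highest mean FPKM, and the 5 genes nearest to the annexin with the widest range of group means among those with at least 10 FPKM. Fold changes of members were given for pairs with an unadjusted p under 0.05, and, outside this rule, for ANXA1 and ANXA4 where YL2 turned their direction. No sequences were used.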

Additional observations from a re-analysis of the deposited data

How the results depend on the processing

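No annexin reached an adjusted p under 0.01 in any alternative fit, and of the 12 annexin fold changes with an unadjusted p under 0.05, 1 changed direction, ANXA5 in TH over YH (-0.05 with the same FPKM sum). Among annexins and partners beyond these 12, directions also turned, among others for TMSB10 and CAPNS1 in TH over YH with the same FPKM sum (both stayed above the median of all genes), and for ANXA1 and ANXA4 without YL2, with the values given above. The log2 fold change of ANXA2 in TH over YH ranged from 0.86 to 2.37 (adjusted p 0.0641 to 0.709) and in TH over TL from 1.38 to 2.23 (adjusted p 0.0864 to 0.998). For ANXA8 the adjusted p ranged from 0.0154 to 0.125 in TH against YH and from 0.0262 to 0.409 in TH against TL. ANXA8 had no value under a filter on a mean of 10 FPKM.

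Over all genes, the counts called were 4 in TH against YH, 1 in TL against YL, 6 in TH against TL, 0 in YH against YL and 4 for the interaction. With the same FPKM sum they were 38, 97, 30, 69 and 40, and with scaled reads, an alternative chosen after seeing the data, 0 in each. An adjusted p under 0.05 gave 31 in TH against YH and 12 in TH against TL. An unadjusted p under 0.01 gave 484, 242, 306, 100 and 339, and an unadjusted p under 0.05 with any fold gave 711 in YH against YL. Fits of only the 4 libraries compared gave 2 in TL against YL and 11 in TH against TL, and a pseudocount of 0.1 gave 1 in YH against YL. Leaving out 1 library gave 1 to 305 in TL against YL, 4 to 13 in TH against TL, 0 to 305 in YH against YL and 4 to 152 for the interaction, with the highest counts without YL1, which leaves YL2 alone in its group, and for TH against TL equally without YL2. The lone library was then assumed to vary like the other groups.

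Scaling by median ratios moved the median of all genes in TH over YH from -0.03 to -0.13. The replicate numbers did not pair the libraries (correlations of the differences between replicates from -0.084 to 0.118), and a fit with the replicate block gave 3, 1, 4, 0 and 4 calls. The planned count tests were not run, because the deposited signal is scaled and 7 of the 8 libraries hold 1 to 5 values below that taken as 1 read, so that the reads per gene given here are estimates. ANXA8 rested on 16 to 510 reads, the fewest of the 8 annexins.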
